A study of Homo sapiens with 117 samples.

Results

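The sites described here are 2540 CTCF binding sites that lie away from promoters and have no CpG dinucleotide around their centre. They came from 24 lists of CTCF ChIP-seq peaks. The 20000 peaks with the highest fold over background were taken from each list, summits within 100 bp of each other were joined, and a site was kept when it appeared in 2 or more lists. This gave 26860 sites, of which 23774 were distal, meaning more than 1 kb from every transcription start site (TSS) of a protein-coding gene in GENCODE release 44. Of the distal sites, 2540 (10.7%, or 9.46% of all sites) had no CpG within 100 bp of the centre in the GRCh38 sequence. These are called CpG-free sites below. They were selected on the same fold values that are described here, so their presence in the lists is a description and carries no test.

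CTCF is a zinc finger protein that binds a long, directional DNA motif and, together with cohesin, holds chromatin loops and marks domain borders. At some positions of the motif a methylated cytosine weakens binding, and in mammalian cells outside the germ line and pluripotent cells most cytosine methylation sits in CpG. A site without CpG offers no substrate for that methylation close to the bound protein. IDH1 R132H is a cancer mutation that makes the enzyme produce D-2-hydroxyglutarate, an inhibitor of dioxygenases that include the TET enzymes, which oxidise methylated cytosine. TET1 CD is the catalytic domain of one of these enzymes, and TET1 dCD is its catalytically dead form.

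All cells were DIvA cells, a U2OS osteosarcoma line with a stable fusion of the restriction enzyme AsiSI and the hormone binding part of the estrogen receptor. The drug 4-hydroxytamoxifen (4-OHT) sends this fusion into the nucleus, where it cuts the genome. The 8 conditions were IDH1 WT and IDH1 R132H cells, and IDH1 R132H cells with overexpressed TET1 CD or TET1 dCD, each untreated (−DSB) or given 300 nM 4-OHT for 4 h (+DSB). There were 3 lists of WT −DSB, 4 each of WT +DSB, R132H −DSB and R132H +DSB, 2 each of TET1 CD −DSB, TET1 CD +DSB and TET1 dCD +DSB, whereas TET1 dCD −DSB had 3. WT −DSB replicate 1 was not analysed here. The TET1 cells all carried IDH1 R132H, so TET1 CD was compared with TET1 dCD and not with WT cells. The study calls its ChIP-seq replicates biological, but the sources used here do not tie the lists to separate cultures and state the number of replicates in more than one way. The p-values below therefore measure the spread between these samples, which may be technical.

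In 7 pairs of lists of one condition, read numbers at summits common to both agreed within sampling noise. Each pair was averaged and counted as 1 sample, which left 17 samples. A joined pair is written as 3+4 or 1+2 below. Agreement was closer than sampling noise gives in WT +DSB 3+4, TET1 CD +DSB 1+2 and R132H −DSB 3+4. The chi-square of their summit reads per degree of freedom was 0.651, 0.671 and 0.912, and the reason was not tested. The reads behind a list, estimated from the steps between its fold values, ranged from 22.7 to 85.4 M (1e6 reads), and the lists held 111558 to 503609 peaks. Each list had a highest possible fold, the one reached when every position on both strands of a fragment length counted 1 read. The strongest peak of all 24 lists stood at 99.9% to 100% of that ceiling, and 1 to 28 CpG-free sites per list lay at 90% of it or more. The run names that the peak caller wrote into the lists went against the labels in 9 lists. The 3 lists labelled WT −DSB carry run names of untreated mutant cells, and the 4 lists labelled R132H −DSB carry run names of untreated WT cells. Replicates 1 and 2 of TET1 dCD −DSB are named as TET1 CD runs with 4-OHT. The labels are used as given, the −DSB results refer to lists with those labels, and the tests between samples and the counts of sites called are also given with the groups that the run names imply. The run names of the WT and R132H +DSB lists match their labels.

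Over the CpG-free sites the samples did not sort by their labels. The difference between 2 samples was taken as the root mean square of the log2 fold differences over the 2361 CpG-free sites that had a peak in every list, after quantile normalisation. Samples of the same group differed by 0.277 (WT −DSB), 0.305 (WT +DSB), 0.287 (R132H −DSB) and 0.296 (R132H +DSB) on average. The averages were 0.288 between WT −DSB and R132H +DSB, and 0.341 between WT +DSB and R132H −DSB. They were 0.640 between WT −DSB and WT +DSB, 0.586 between R132H −DSB and R132H +DSB, 0.641 between WT +DSB and R132H +DSB, and 0.588 between WT −DSB and R132H −DSB. WT −DSB thus stood as close to R132H +DSB as to itself, and far from the groups with which it shares a genotype or a treatment. The other distal sites showed the same pattern. There the averages were 0.255 between WT −DSB and R132H +DSB, and 0.322 between WT +DSB and R132H −DSB. They were 0.668 between WT −DSB and WT +DSB, and 0.656 between WT +DSB and R132H +DSB. The smallest difference of any pair, 0.144, was between TET1 CD +DSB and TET1 dCD −DSB replicate 3, which lay 0.497 from the other TET1 dCD −DSB sample. The nearest sample belonged to the same group for 6 of the 15 samples in groups of 2 or more. Depth and fragment length followed the same lines. WT −DSB and R132H +DSB had 22.7 to 35.1 M reads and shortest peaks of 121 to 128 bp, while WT +DSB and R132H −DSB had 44.3 to 85.4 M reads and shortest peaks of 143 to 191 bp. The part of depth, fragment length and labels in the differences below was not tested.

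**Figure D1:**
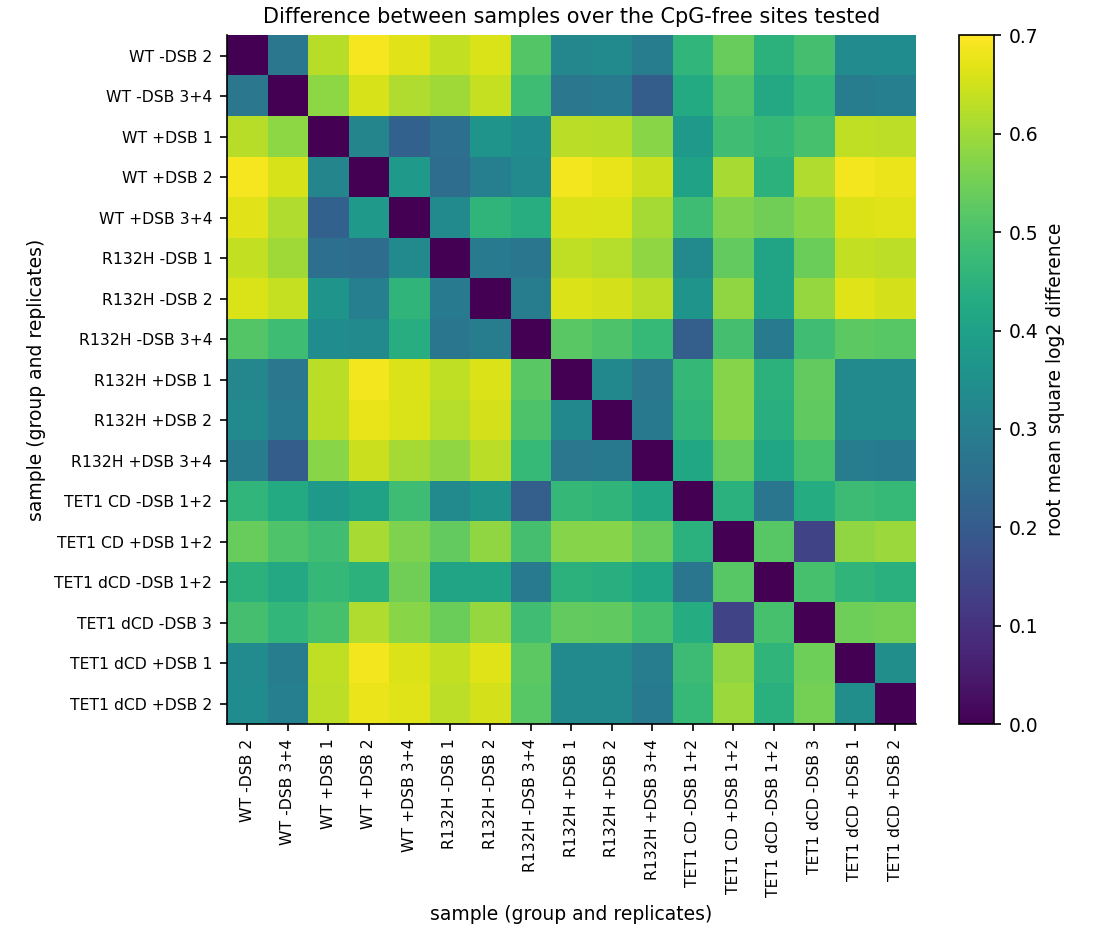
Heat map of the difference between each pair of the 17 samples, as the root mean square of the log2 fold differences over the CpG-free sites with a peak in every list (rows and columns are samples named by group and replicate, and the colour scale is in log2 units). WT −DSB and R132H +DSB form one block of small differences, with a mean of 0.288 between them, and WT +DSB and R132H −DSB form another, with a mean of 0.341.

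The sequences of 6 CpG-free sites are shown, 2 with strong binding in all lists and 4 with the widest differences. All are read on the + strand of GRCh38, and the CTCF core motif is in capitals where a match was found. The core motif was searched as CCNNNAGNNGGC on both strands. The first 2 are among the 5 CpG-free sites with the highest rank by fold. They hold the core motif on the − strand, so that its complement appears in capitals, and neither motif contains CpG. One lies in an intron of SLC8A3, which encodes a sodium and calcium exchanger, with the motif CCACCAGGGGGC. The other lies in an intron of PPM1D, which encodes a phosphatase of the DNA damage response, with the motif CCACTAGAGGGC.
chr14:70074048-70074248: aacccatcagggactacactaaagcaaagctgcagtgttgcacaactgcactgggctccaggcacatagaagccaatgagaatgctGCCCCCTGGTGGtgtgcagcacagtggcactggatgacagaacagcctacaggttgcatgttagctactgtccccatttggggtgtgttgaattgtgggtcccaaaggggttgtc
chr17:60638836-60639036: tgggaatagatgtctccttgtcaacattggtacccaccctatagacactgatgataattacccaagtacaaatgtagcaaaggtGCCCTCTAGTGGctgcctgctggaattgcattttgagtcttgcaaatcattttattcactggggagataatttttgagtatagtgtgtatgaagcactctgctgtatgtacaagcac

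The remaining 4 are the CpG-free sites with the largest called differences between R132H and WT, 1 in each direction with and without 4-OHT, and no core motif was found in them. With 4-OHT, the site highest in R132H is an intergenic run of GA 191 kb from ZNF521, a zinc finger gene, and the site lowest in R132H is intergenic, 62.7 kb from FRAS1, which encodes an extracellular matrix protein. Without 4-OHT, the site highest in R132H lies in an intron of ZFAND3, and the site lowest in R132H lies in introns of genes not annotated as protein-coding, 50.6 kb from the olfactory receptor gene OR4F16.
chr18:25033522-25033722: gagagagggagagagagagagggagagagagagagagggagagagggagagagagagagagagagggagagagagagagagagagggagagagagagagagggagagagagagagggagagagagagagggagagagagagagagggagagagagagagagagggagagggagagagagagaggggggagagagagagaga
chr4:77994515-77994715: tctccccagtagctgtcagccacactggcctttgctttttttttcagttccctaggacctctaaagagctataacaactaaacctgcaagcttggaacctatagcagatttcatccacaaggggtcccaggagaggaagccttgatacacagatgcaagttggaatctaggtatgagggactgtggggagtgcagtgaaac
chr6:37860331-37860531: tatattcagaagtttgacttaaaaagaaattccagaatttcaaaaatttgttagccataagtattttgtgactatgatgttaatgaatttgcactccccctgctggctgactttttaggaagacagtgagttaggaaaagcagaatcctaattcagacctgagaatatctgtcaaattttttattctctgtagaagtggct
chr1:737153-737353: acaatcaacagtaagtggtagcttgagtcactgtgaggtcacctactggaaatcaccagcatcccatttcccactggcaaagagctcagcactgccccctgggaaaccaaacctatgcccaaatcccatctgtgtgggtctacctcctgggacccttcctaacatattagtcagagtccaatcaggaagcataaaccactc

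CpG-free sites were AT-rich, mostly intronic and far from other CTCF sites. Their median GC content was 38.8%, with quartiles of 34.3% and 44.3%, against 43.3% at the 13862 distal sites with 1 to 4 CpG, 57.7% at the 7372 distal sites with 5 or more and 66.2% at the 3086 sites within 1 kb of a TSS. A lack of CpG goes with low GC by construction. Of the CpG-free sites, 59.4% lay in introns, 36.1% between genes and 4.45% in exons. Introns held 47.3%, 41.5% and 36.4% of the sites with 1 to 4 CpG, with 5 or more CpG and near a TSS. The median distance to the next site was 34.4 kb, against 21.8, 17.3 and 21.4 kb in the other 3 classes. The median distance to a protein-coding TSS was 37.7 kb, between the 41.5 kb of sites with 1 to 4 CpG and the 24.3 kb of sites with 5 or more.

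The CTCF core motif was present within 50 bp of the centre at 820 CpG-free sites, or 32.3%. Of windows of the same length that start 500 bp from these centres, toward higher coordinates, 0.433% held it. At the distal sites with 1 to 4 CpG the share was 37.3%, against 0.714% in their flanks, and at those with 5 or more CpG it was 50.3%, against 1.89%. Near a TSS it was 39.4%, against 2.82%. CpG-free sites thus had the lowest share of the 4 classes, and the shares at the centres exceeded those in the flanks in all of them. A missing match says only that these letters are not in the window. The bases within the motif also differed. Position 3, counted from 1 at the 5′ end, was A in 81.7% and T in 15.6% of CpG-free motifs, and A in 75.9% and T in 11.8% at distal sites with CpG, of which 8.67% had G, the base that makes a CpG with the C before it. T stood at position 5 in 40.9% against 31.3%, and at position 9 in 53.4% against 41.2%. The most frequent form at CpG-free sites was CCACTAGATGGC, at 59 sites. Of the motif matches, 6.17% at distal sites with 1 to 4 CpG, 24.5% at those with 5 or more and 46.3% near a TSS contained CpG.

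**Figure D2:**
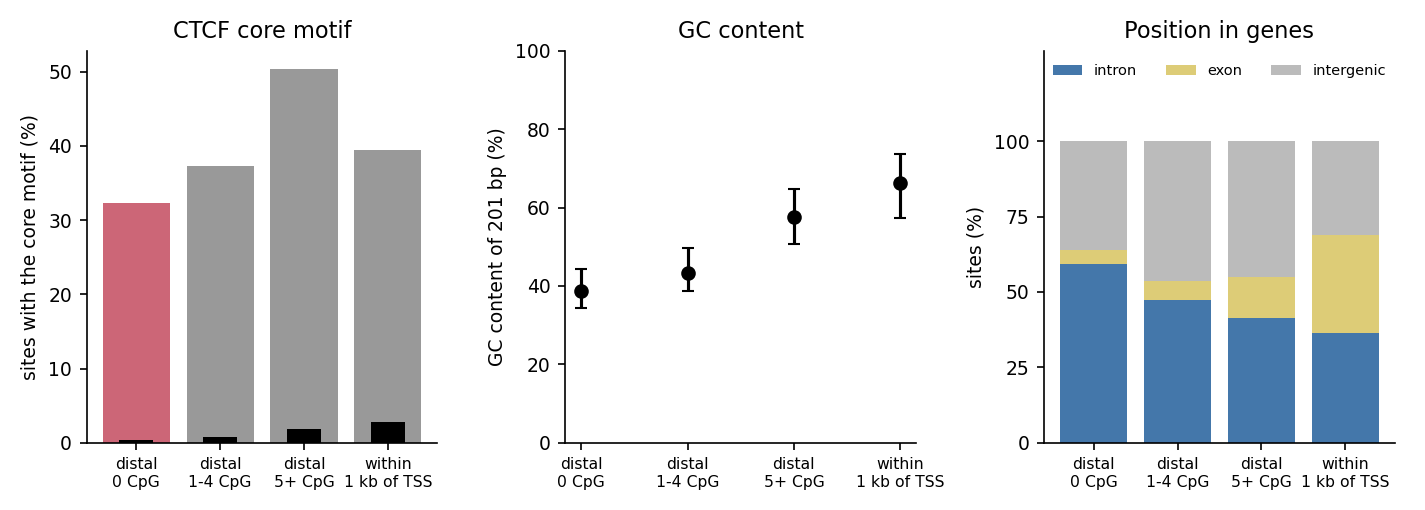
Features of the 4 classes of CTCF sites, in percent of sites or percent GC on the vertical axes. Grey and red bars give the share of sites with a core motif within 50 bp and the narrow black bars the share in windows that start 500 bp away, points with whiskers give the median and quartiles of GC content, and stacked bars give position in genes. CpG-free sites have the lowest share with a core motif (32.3%), the lowest median GC content (38.8%) and the highest share in introns (59.4%).

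How many lists held a CpG-free site varied widely. Of the 2540, 890 (35.0%) were among the 20000 strongest peaks of all 24 lists, 788 were in 13 to 23 lists, 435 in 6 to 12 and 427 in 2 to 5. The share in all 24 lists was 45.4%, 59.7% and 49.9% in the classes with 1 to 4 CpG, with 5 or more CpG and near a TSS. The core motif was found at 38.7% of the CpG-free sites in all 24 lists and at 22.7% of those in 2 to 5 lists. Just inside the rule, 118 CpG-free sites were in exactly 2 lists, and just outside it 176 CpG-free distal clusters were in 1 list and were left out. A further 3905 distal sites had exactly 1 CpG, and 38 CpG-free sites lay within 1 kb of a TSS. Of the 2540, 57 lay on chromosome X and 8 on chromosome Y.

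A small group of CpG-free sites consisted of repeated sequence, which a read aligner cannot always place. Low complexity, defined as fewer than 98 distinct words of 6 bases among the 196 in the window, was found at 72 CpG-free sites (2.83%), against 1.17% and 2.12% of distal sites with 1 to 4 and with 5 or more CpG and 0.356% of sites near a TSS. Copies were also present, in that 94 CpG-free sites (3.70%) shared over 50% of their 31-base words with another CpG-free site, in 34 groups of up to 12. Values at these sites are uncertain, because reads of one copy may be counted at another. Neither applied to 2374 sites.

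CpG-free sites had a lower fold than distal sites in general, in every sample. Strength was measured as the percentile rank by fold among all distal sites of a list, from 0 for the weakest to 100 for the strongest, and averaged over the CpG-free sites. For the WT and R132H samples the rule was applied to the 9 TET1 lists alone, which gave 2356 CpG-free sites of 21552 distal sites, and for the TET1 samples to the other 15 lists, which gave 2280 of 22347. No sample thus helped to choose the sites it was tested on. The mean rank was 39.4 and 38.8 in WT −DSB, and 37.9, 38.5 and 35.1 in WT +DSB. It was 38.8, 40.3 and 39.4 in R132H −DSB, and 38.7, 38.5 and 38.0 in R132H +DSB. TET1 CD had 43.6 without and 47.6 with 4-OHT, and TET1 dCD had 42.9 and 47.0 without and 41.1 and 40.8 with 4-OHT. All 17 samples lay below 50, the rank of an average distal site. The mean difference from 50 was −9.62, with a two-sided exact sign-flip permutation p of 1.53e-05, the smallest that 17 samples allow, and a Benjamini-Hochberg adjusted p of 0.000198 over the 13 permutation tests made. All samples share 1 line and 1 genome, so the test covers only the spread between samples. With ranks taken within 5 bins of GC content the difference was −3.67 (exact permutation p = 4.58e-05). With the 40000 strongest peaks of each list in place of 20000 it was −1.81 (exact permutation p = 0.128). Within the GC bins the difference was thus smaller but still below 0 on average. Its p exceeded the smallest possible, so not every sample lay below the average there. When weaker peaks entered, the difference was not beyond the spread between samples.

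Rank varied among the CpG-free sites with motif and GC content. In the 17 samples the mean rank of the 820 with a core motif ranged from 40.5 to 51.1 with a median of 46.0, and that of the 1720 without ranged from 35.2 to 46.1 with a median of 38.8. The 802 sites of lowest GC content, under 35.8%, had mean ranks from 26.2 to 46.5 with a median of 38.4, and the 882 of highest GC content had mean ranks from 41.7 to 46.9 with a median of 43.3. Of the 3 bins of GC content, the lowest thus had the widest range between samples. The same lists chose the sites and gave these ranks, so they are given without a test.

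**Figure D3:**
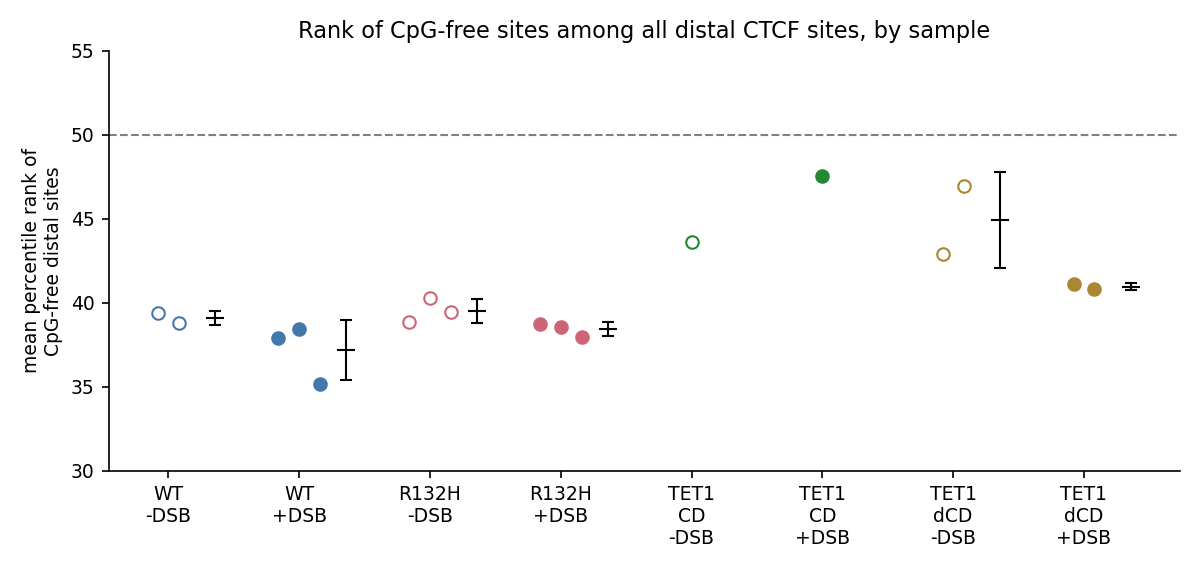
Mean percentile rank by fold of the CpG-free sites among all distal sites (vertical axis, 0 weakest to 100 strongest) in each of the 17 samples, grouped by condition along the horizontal axis, with sites chosen in lists the sample was not part of. Each point is 1 sample, and all lie below the rank of 50 that distal sites have on average, from 35.1 in a WT +DSB sample to 47.6 in TET1 CD +DSB.

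The mean rank of the CpG-free sites was lower with 4-OHT in both genotypes without overlap of the samples, but no test of genotype or treatment reached p under 0.05, which was out of reach within a genotype, where the smallest possible p was 0.1. Means were 39.1 ± 0.417 (SD, n = 2) in WT −DSB, 37.2 ± 1.78 (SD, n = 3) in WT +DSB, 39.5 ± 0.725 (SD, n = 3) in R132H −DSB and 38.4 ± 0.401 (SD, n = 3) in R132H +DSB. R132H exceeded WT by 0.85 averaged over treatments (two-sided exact permutation p = 0.145, adjusted 0.269), and by 0.34 without WT +DSB replicate 3+4. With every list as its own sample the difference was 1.08 (exact permutation p = 0.0469). That p counts lists that agreed within sampling noise as separate samples, which can make it too small. With 4-OHT the rank changed by −1.89 in WT (exact permutation p = 0.2) and by −1.09 in R132H (exact permutation p = 0.1). Without WT +DSB replicate 3+4 the change in WT was −0.87, and without R132H −DSB replicate 2 that in R132H was −0.71. These changes differed between the genotypes by 0.80 (exact permutation p = 0.635), or by −0.22 without WT +DSB replicate 3+4. With the groups of the run names the genotypes differed by 0.40 (exact permutation p = 0.635), the change with 4-OHT was −2.34 in WT (exact permutation p = 0.1) and −0.65 in R132H (exact permutation p = 0.2), and these changes differed by 1.69 (exact permutation p = 0.145). TET1 CD exceeded TET1 dCD by 2.64 averaged over treatments (exact permutation p = 0.444, with 0.111 the smallest possible). It lay below TET1 dCD without 4-OHT, at 43.6 against a mean of 44.9, and above it with 4-OHT, at 47.6 against 41.1 and 40.8. The average difference was 1.63 without TET1 dCD −DSB replicate 1+2 and 0.46 with the groups of the run names. The TET1 samples lay between 40.8 and 47.6 and the WT and R132H samples between 35.1 and 40.3, but over sites chosen in different lists, so they were not compared.

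The ranks depended on GC content. Within the 5 bins of GC content the change with 4-OHT was 4.32 in WT (exact permutation p = 0.1) and −3.62 in R132H (exact permutation p = 0.1), and the difference between these changes was −7.95 (exact permutation p = 0.005, the smallest possible). The direction in WT was thus opposite to that of the plain rank, and R132H then lay below WT by 0.526 on average (exact permutation p = 0.735). With the 40000 strongest peaks the differences were 4.83 in WT and −8.77 between the genotypes, the latter with an exact permutation p of 0.005.

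A peak of any strength lay within 100 bp of nearly all CpG-free sites in every sample. The lists included weak peaks. Their lowest folds were 1.88 to 2.45, and 71.1% to 96.2% of their peaks had a q under 0.05. A peak counted here thus does not show that strong binding was kept. As for the rank, each share was taken over sites chosen in lists the sample was not part of. The share was 99.2% and 99.3% in WT −DSB, 98.0%, 98.5% and 98.2% in WT +DSB, 98.6%, 98.8% and 98.9% in R132H −DSB, and 99.0%, 99.2% and 99.0% in R132H +DSB. WT +DSB lay below WT −DSB without overlap, and R132H +DSB lay above R132H −DSB without overlap. The change with 4-OHT was −1.02 percentage points in WT and 0.30 in R132H, each with an exact permutation p of 0.1, the smallest possible within a genotype. The difference between these changes was 1.32 percentage points (two-sided exact permutation p = 0.005, the smallest possible, adjusted 0.0325). At the other distal sites the shares followed the same order, from 98.2% in both WT −DSB samples to 96.7%, 97.4% and 96.9% in WT +DSB. With the groups that the run names imply the changes were −0.58 in WT (exact permutation p = 0.1) and −0.13 in R132H (exact permutation p = 0.3), and their difference was 0.45 (exact permutation p = 0.385). With summits within 50 bp it was 0.94 (exact permutation p = 0.07), and with the 40000 strongest peaks or a −log10 q of at least 10 its sign turned. R132H differed from WT by 0.22 percentage points over both treatments (exact permutation p = 0.385), and by 0.66 with the groups of the run names (exact permutation p = 0.005, the smallest possible). TET1 CD differed from TET1 dCD by −0.35 (exact permutation p = 0.667), and by 0.22 with the groups of the run names (exact permutation p = 1). Without TET1 dCD −DSB replicate 1+2 it was −0.055, and without replicate 3 it was −0.65.

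At the level of single sites, CpG-free sites moved in both directions between R132H and WT cells given 4-OHT. The fold of each of the 23838 sites with a peak in every list was compared on the log2 scale after quantile normalisation, in limma, with p-values adjusted by Benjamini-Hochberg over all of them and calls made at an adjusted p under 0.05. Of the 2540 CpG-free sites 2361 could be tested and 179 could not, for lack of a peak in at least 1 list. A site strong in some conditions only could enter the rule through them, so the counts describe these sites beside the share of all sites called. Of the 2361, 1156 (49.0%) differed, against 51.3% of all sites. They were higher in R132H at 756 sites (32.0%, against 27.8% of all sites) and lower at 400 (16.9%, against 23.5%). The median log2 difference of the CpG-free sites was 0.12, against 0.03 over all sites. Of the distal sites with 1 to 4 CpG 36.3% were higher and 17.6% lower, of those with 5 or more CpG 18.2% were higher and 28.3% lower, and near a TSS 6.43% were higher and 46.3% lower. With median centring in place of quantile normalisation, 727 CpG-free sites were called higher and 727 lower (together 61.6%, against 68.1% of all sites). The excess of higher calls thus rested on the normalisation. The run names leave these lists in place, and their groups gave 751 higher and 395 lower (together 48.5%, against 50.7% of all sites). The 756 higher sites had a median GC content of 36.8% and a core motif at 39.0%, and the 400 lower sites had 42.3% and 27.3%. Over the CpG-free sites the Spearman correlation of the log2 difference with GC content was −0.24, across sites that share libraries and base composition. The median difference was 0.29 in the lowest of 3 bins of GC content and −0.01 in the highest.

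Without 4-OHT, the CpG-free sites called between the lists labelled R132H and WT numbered 706 (29.9%, against 32% of all sites). They were higher in R132H at 335 (14.2%, against 16.6%) and lower at 371 (15.7%, against 15.4%), with a median log2 difference of −0.05. With median centring 57.9% of the called CpG-free sites were higher, against 47.5% here. It called 41.2% of the CpG-free sites, against 44.8% of all sites. With the groups of the run names 694 were called (29.4%, against 31.2% of all sites), 366 higher and 328 lower. With the labels as given, the count was lower without either WT −DSB sample, as was that of all sites, and a single sample then remained in that group. Without R132H −DSB replicate 1 it was 460, against 4920 of all 23838 sites. Without R132H −DSB replicate 2 it was 469, against 5263. Sites with a log2 difference over 1 were 98 of those higher and 73 of those lower, which are counts of CpG-free sites without a share of all sites beside them.

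4-OHT was accompanied by lower fold at more CpG-free sites than higher in the lists labelled WT. There, 1024 (43.4%, against 45.8% of all sites) were called, 320 higher (13.6%, against 21.1%) and 704 lower (29.8%, against 24.8%), with a median log2 difference of −0.15. With median centring 46.9% of the called CpG-free sites were higher, against 31.3% here. It called 53.8% of the CpG-free sites, against 62.7% of all sites. In the lists labelled R132H, 830 (35.2%, against 36.6% of all sites) were called, 416 higher (17.6%, against 18.2%) and 414 lower (17.5%, against 18.3%). There median centring gave 497 higher and 701 lower (together 50.7%, against 53.3% of all sites). Of these called CpG-free sites 41.5% were higher, against 50.1% here. These calls rested on the labels of the −DSB lists. With the groups of the run names none of the 2361 CpG-free sites was called by limma with 4-OHT in either genotype, at an adjusted p under 0.05. Of all 23838 sites 1 was called in WT and 0 in R132H. An unadjusted p under 0.05 was then found at 409 CpG-free sites in WT and at 44 in R132H, against 3194 and 433 of all sites. With the labels as given, the WT count was lower without either WT −DSB sample, as was that of all sites. A single sample then remained in that group. The comparisons within WT share the WT +DSB samples with the comparison of genotypes, so their counts are not independent of it.

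Overexpressed TET1 CD and TET1 dCD were compared within IDH1 R132H cells. With 4-OHT, 253 CpG-free sites (10.7%, against 15.4% of all sites) were called, 188 higher in TET1 CD (7.96%, against 6.71%) and 65 lower (2.75%, against 8.67%). The median log2 difference was 0.17, and TET1 CD +DSB was a single sample, which is assumed to vary like the other groups. Near a TSS 19.4% of sites were higher and 1.96% lower, and at distal sites with 1 to 4 CpG 4.88% were higher and 11% lower. The count was lower without TET1 dCD +DSB replicate 1 or 2. It was 680 with every list as its own sample (28.8%, against 32.3% of all sites) and 790 with median centring (33.5%, against 38.5%). With the groups of the run names it was 107 (4.53%, against 4.66%). Without 4-OHT no CpG-free site was called by limma, as was 0% of all sites, and 54 CpG-free sites of 756 sites in all had an unadjusted p under 0.05. With run-name groups, which leave 1 sample on each side, the median log2 difference of the CpG-free sites was −0.09. Without the joined TET1 dCD −DSB replicates 1+2, whose run names go against their labels, some CpG-free sites were called, with 1 sample left in that group.

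**Figure D4:**
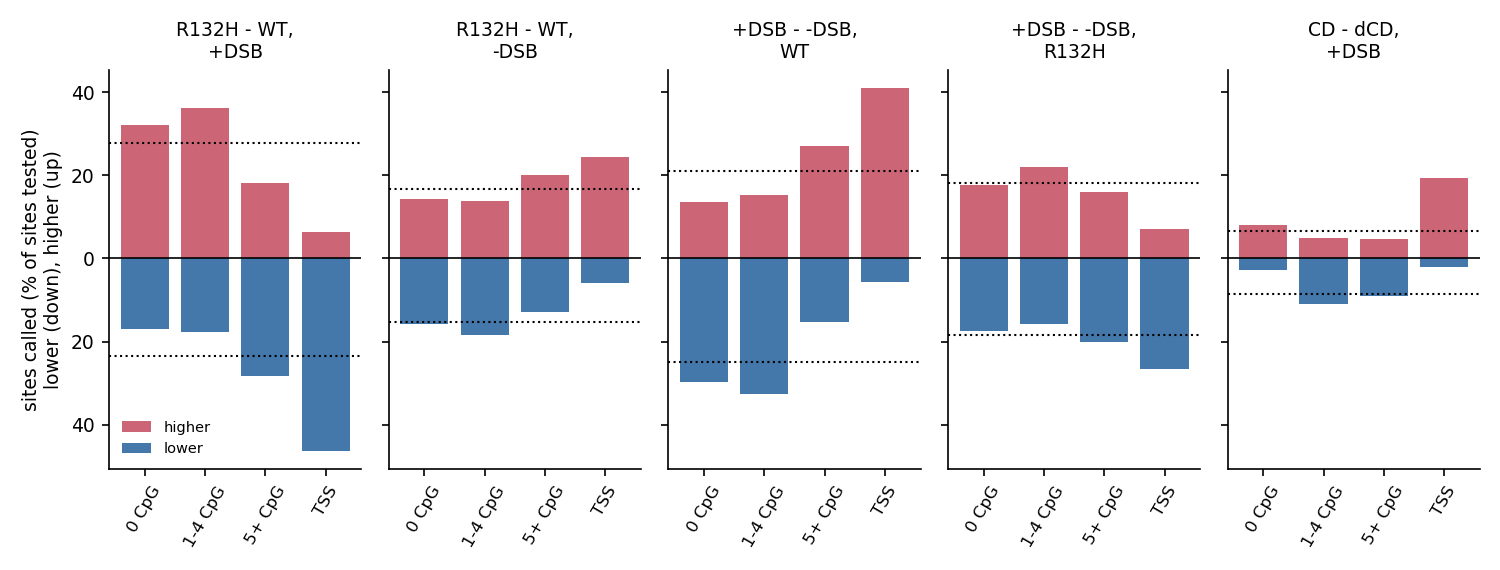
Percent of tested sites called higher (upward bars) and lower (downward bars) in each comparison by limma, at an adjusted p under 0.05, for CpG-free sites and the other 3 classes, with dotted lines at the share of all sites tested. In R132H against WT with 4-OHT 32.0% of CpG-free sites are higher and 16.9% lower, and in TET1 CD against TET1 dCD with 4-OHT 7.96% are higher and 2.75% lower.

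Repeated sequence moved with the groups. Of the 104 tested CpG-free sites of low complexity or with a copy, 71 were higher and 4 lower in R132H than in WT with 4-OHT, with a median log2 difference of 0.73. Of the other 2257, 685 were higher and 396 lower, with a median of 0.10. Without 4-OHT 3 of the 104 were higher and 39 lower in R132H, against 332 higher and 332 lower of the 2257. With 4-OHT in WT, 2 of the 104 were higher and 69 lower, against 318 and 635 of the 2257. In R132H 42 of the 104 were higher and 7 lower, against 374 and 407. Between TET1 CD and TET1 dCD with 4-OHT none of the 104 was higher and 40 were lower, against 188 and 25 of the 2257, so that 40 of the 65 lower calls among CpG-free sites were repeats. The 20 tested sites of low complexity had the widest median difference there, −1.77, and all of the 17 called were lower. The part of fragment length and read placement in this was not tested.

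The motif-bearing sites in PPM1D and SLC8A3 were chosen for a high rank in all 24 lists. At the PPM1D intron site (chr17:60638836-60639036, 38.4 kb from the TSS) the fold was 54.9, 45.6 and 54.4 in WT +DSB and 87.1, 91.1 and 85.1 in R132H +DSB. The ranks of 96.4 to 97.4 in WT and 99.1 to 99.3 in R132H were close. The folds stood near the ceiling of their lists, at 80.1% to 93.3% of it in the WT +DSB lists and 74.7% to 88.9% in the R132H +DSB lists. The ceilings themselves ran from 54.0 to 63.1 in WT +DSB and from 96.7 to 117.7 in R132H +DSB. The R132H folds lay above every WT +DSB ceiling, so the deposited folds of these groups could not overlap here. The part of the ceilings in the normalised difference was not tested, so no difference in binding is read from it or its p. The normalised log2 difference was 0.22 ± 0.05 (SE, limma adjusted p = 0.000934). Without 4-OHT the difference was −0.01 ± 0.05 (limma adjusted p = 0.883). At the SLC8A3 intron site (chr14:70074048-70074248, 6.03 kb from the TSS) the fold was 55.6, 50.1 and 55.5 in WT +DSB and 88.5, 87.7 and 85.7 in R132H +DSB, with a normalised log2 difference of 0.12 ± 0.05 (SE, limma adjusted p = 0.0426). There the folds reached 88.2% to 95.0% of the ceiling in WT +DSB and 74.5% to 88.5% in R132H +DSB. The R132H folds again lay above every WT +DSB ceiling, and the same limit holds.

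Of the CpG-free sites higher in R132H with 4-OHT, the GA repeat near ZNF521 (chr18:25033522-25033722) had the largest difference. This site and those that follow were chosen as the largest called differences, and each was among the 20000 strongest peaks of only 3 to 12 of the 24 lists, so it could enter through the groups where it was high. Their differences are therefore given with the SE and without a test. Its fold was 5.96, 10.9 and 8.87 in WT +DSB and 56.1, 72.7 and 45.7 in R132H +DSB, a log2 difference of 2.59 ± 0.32 (SE). Without 4-OHT it was 65.5 and 35.0 in WT and 10.3, 9.11 and 15.4 in R132H, a difference of −2.20 ± 0.35 (SE). The fold was also high in TET1 dCD +DSB (52.5 and 51.8) and low in TET1 CD +DSB (6.86), the untreated TET1 samples (19.0 for CD, 14.7 and 7.24 for dCD). The samples with high fold were those of the lists with the shortest fragments, with shortest peaks of 118 to 128 bp, and the groups with lower fold had 139 to 194 bp.

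The next largest differences with 4-OHT, 2.31 ± 0.29 at chr7:128650457-128650657, 21.7 kb from GARIN1A, and 2.28 ± 0.26 at chr1:737153-737353, near OR4F16, came from copies of one sequence. At the chr1 site the fold was 5.33, 4.76 and 4.92 in WT +DSB and 26.2, 25.2 and 23.5 in R132H +DSB. Without 4-OHT it was 38.2 and 31.7 in WT and 6.87, 4.42 and 10.7 in R132H, a log2 difference of −2.59 ± 0.29 (SE). These 2 sites and chr3:198217734-198217934, 258 kb from LMLN and with a difference of −2.51 ± 0.31 without 4-OHT, share 76.6% to 78.9% of their 31-base words, and have 7 to 10 copies each among the CpG-free sites. All 3 were among the 3 lowest in R132H without 4-OHT, where the chr7 site had −2.45 ± 0.32. They are one observation rather than 3, and the copy that was bound cannot be told from these lists.

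The 3 CpG-free sites with the largest differences toward lower fold in R132H with 4-OHT had no copy among the CpG-free sites. At the site near FRAS1 (chr4:77994515-77994715) the fold was 36.8, 20.8 and 31.8 in WT +DSB and 7.61, 3.88 and 6.37 in R132H +DSB, a log2 difference of −2.06 ± 0.29 (SE). Without 4-OHT it was 8.81 and 6.71 in WT and 29.5, 25.4 and 20.4 in R132H, a difference of 1.62 ± 0.32 (SE). A motif-bearing intronic site 68.3 kb from NCK2, an adaptor protein gene, at chr2:105919957-105920157, had a fold of 35.9, 26.0 and 40.2 in WT +DSB and 6.66, 8.24 and 8.12 in R132H +DSB, with a difference of −1.95 ± 0.30. An intergenic site 15.5 kb from SIX2, a homeobox gene, at chr2:45024818-45025018, had 40.9, 26.6 and 43.7 against 8.56, 8.72 and 8.90, with a difference of −1.90 ± 0.25. At all 3 sites the groups were apart with 4-OHT, and the order was the opposite in the lists labelled −DSB.

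Without 4-OHT the 3 CpG-free sites with the largest differences toward higher fold in R132H had no copy among the CpG-free sites either. They were among the 20000 strongest peaks of 5, 12 and 3 lists. At the ZFAND3 intron site (chr6:37860331-37860531) the fold was 4.89 and 4.20 in WT −DSB and 25.4, 20.1 and 24.7 in R132H −DSB, a log2 difference of 2.17 ± 0.38 (SE). At the motif-bearing site in an intron of SLC29A1, a nucleoside transporter gene (chr6:44221605-44221805, 1.85 kb from the TSS), it was 7.83 and 11.6 in WT and 43.9, 32.8 and 38.8 in R132H, a difference of 2.05 ± 0.27. At chr10:19811620-19811820, 4.52 kb from PLXDC2 and 4.05 kb from an AsiSI site, it was 3.42 and 5.55 in WT and 24.5, 16 and 20.0 in R132H, a difference of 2.03 ± 0.31. With 4-OHT the differences were −1.42 ± 0.34, −1.74 ± 0.24 and −1.73 ± 0.27 at these sites. All 10 CpG-free sites named for a difference between R132H and WT thus had opposite signs with and without 4-OHT. With the groups of the run names the −DSB differences change sign, since the run names exchange the genotypes of these lists.

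**Figure D5:**
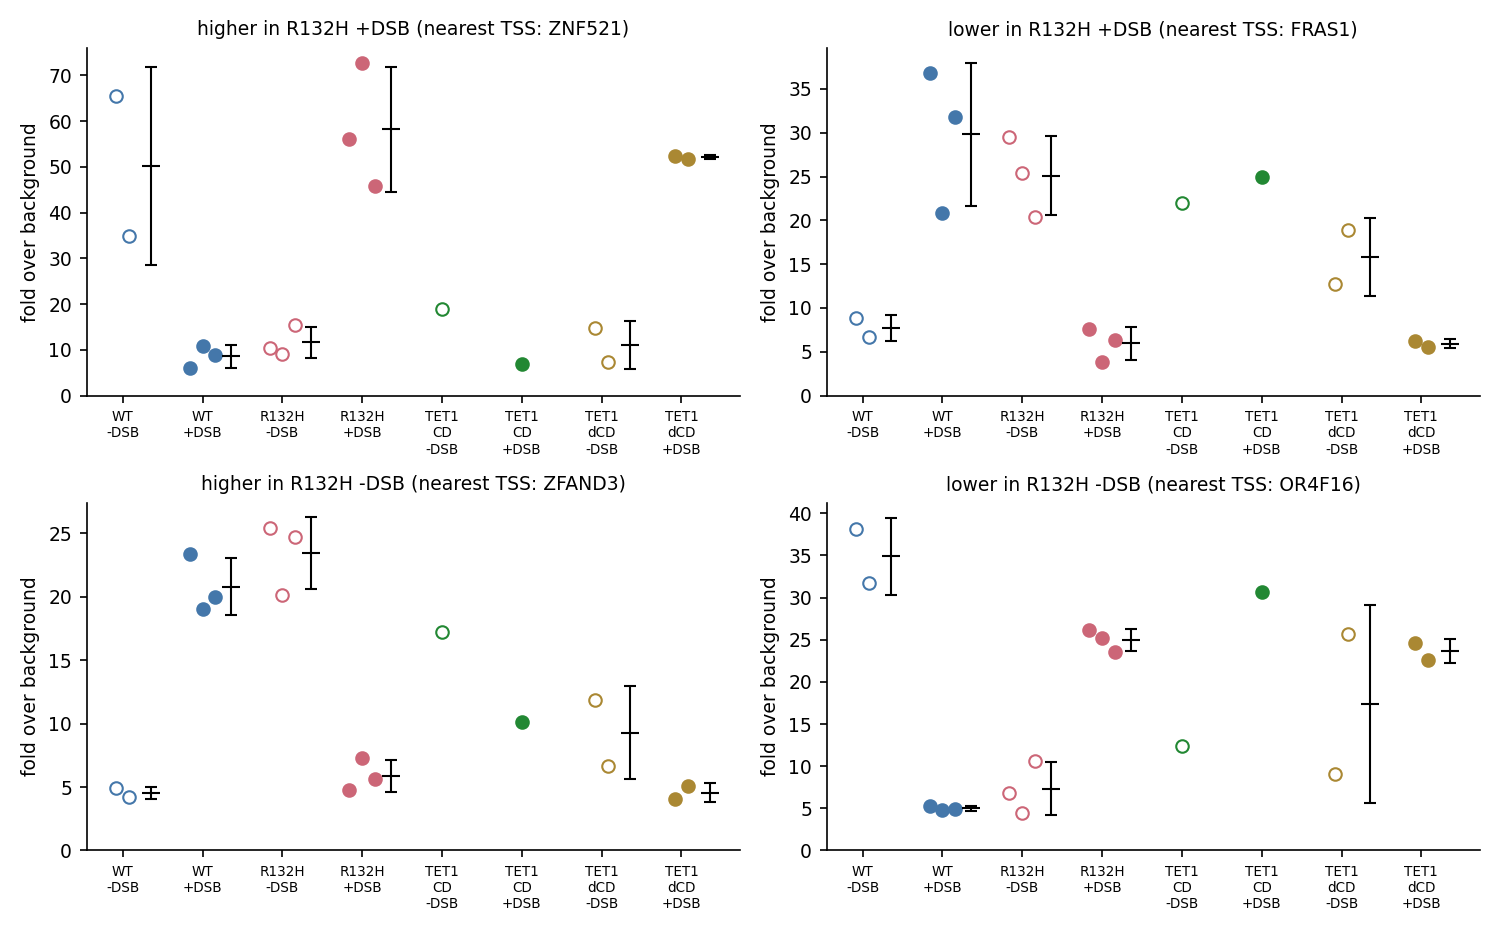
Deposited fold over background (vertical axis, linear) at 4 CpG-free sites, named by their nearest TSS, in each of the 17 samples, grouped by condition along the horizontal axis. Each point is 1 sample, open without and filled with 4-OHT, and bars give the mean and SD of groups of 2 or more. At the GA repeat near ZNF521 the WT −DSB, R132H +DSB and TET1 dCD +DSB samples lie at 35.0 or above and the other samples at 19.0 or below, while the sites near FRAS1 and in ZFAND3 show the reverse order of WT and R132H.

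AsiSI, the enzyme that makes the breaks, recognises a sequence that occurs 1228 times in the chromosomes analysed. Within 50 kb of one lay 105 CpG-free sites (4.13%), against 4.05% of distal sites with 1 to 4 CpG, 7.34% of those with 5 or more and 9.11% of sites near a TSS. Ranks were compared over the 2356 CpG-free sites chosen in the 9 TET1 lists, of which 96 lay within 50 kb of an AsiSI site. The rank of these 96 minus that of the others was 0.447 and 0.598 in WT −DSB and 3.10, 4.18 and 4.03 in WT +DSB. In R132H it was 3.93, 2.38 and 1.61 without 4-OHT, and 2.24, 1.06 and 1.28 with it. In WT all +DSB samples lay above the −DSB samples, a change of 3.25 (exact permutation p = 0.1, the smallest possible, adjusted 0.217), and in R132H the groups overlapped, with a change of −1.11 (exact permutation p = 0.2). Without R132H −DSB replicate 1 the change in R132H was −0.47. In the groups of the run names the change was 1.13 in WT (exact permutation p = 0.2) and 1.00 in R132H (exact permutation p = 0.2). Whether a site near AsiSI was cut cannot be told from these lists.

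The CpG-free site nearest to an AsiSI site, at 0.57 kb, lies in an intron of KIAA2026 (chr9:5886169-5886369, 4.62 kb from the TSS of MLANA) and holds the core motif. Its fold was 48.9 and 55.3 in WT −DSB, 48.9, 36.1 and 48.6 in WT +DSB, 44.6, 33.7 and 47.9 in R132H −DSB, and 45.2, 46.0 and 55.6 in R132H +DSB. The groups overlapped, and 4-OHT gave a log2 difference of 0.12 ± 0.08 (SE) in WT (limma adjusted p = 0.231) and −0.07 ± 0.07 in R132H (limma adjusted p = 0.473). At chr15:90286778-90286978, 0.861 kb from an AsiSI site and 20.5 kb from NGRN, the fold was 10.3 and 12.4 in WT −DSB, 18.0, 10.7 and 17.7 in WT +DSB, 14.2, 9.94 and 13.9 in R132H −DSB, and 10.9, 7.75 and 13.5 in R132H +DSB. These groups overlapped too. The site in an intron of ATXN7L2 (chr1:109490689-109490889, 3.29 kb from an AsiSI site) had a fold from 35.7 to 43.5 in the WT and R132H samples with a peak, and no peak within 100 bp of the centre in WT +DSB replicates 1 and 3+4, so it was not tested. The lists without a peak had shortest peaks of 180 to 191 bp, and the other WT and R132H lists 121 to 150 bp. In TET1 CD +DSB, with shortest peaks of 194 bp, the fold was 65.7 but the mean rank of the lists only 42.2. The part of fragment length in this was not tested.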

How the data were processed

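The authors trimmed reads with cutadapt 1.18, mapped them to GRCh38 (hg38) with Bowtie2 and called CTCF peaks in each sample with MACS2 and input as the control, according to the submitters' processing notes and the study's methods. Replicates were not pooled. The deposited fold is a ratio, summit reads plus 1 over a single genome-wide background plus 1, without normalisation between lists. The deposited −log10 p was not used, and the deposited −log10 q served only as a filter in an alternative. The 4C-seq samples were not analysed here.

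Sites were built as described above, with ranks per list and a peak within 100 bp of the centre taken as the site's value. Lists of one condition were joined where a chi-square test of summit reads found no excess over counting noise. Samples were compared by exact permutation tests (Python 3.11.15, numpy 2.4.6, scipy 1.17.1), and single sites by limma 3.58.1 in R 4.3.3 with trend and empirical Bayes, no pseudocount, quantile normalisation and all 8 groups in one fit. Sequence came from the GRCh38 genome through pysam 0.24.0, and Biopython 1.88 and matplotlib 3.10.9 were also used. The scripts were tested on simulated data.

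Named sites were the 5 CpG-free sites of highest mean rank among those in all 24 lists (3 of these are not reported here), the 3 called sites with the largest log2 difference in each direction between R132H and WT with and without 4-OHT, and the 3 nearest to an AsiSI site. Repeats were defined by sequence words, as the genome file carries no repeat annotation. The members, classes and tests were chosen with earlier results of these data known. Estimated reads assume 1 genome size for all lists. Alternatives covered the number of peaks, windows, normalisation, groups from run names, single samples left out, and 2 alternatives for repeats that were chosen after seeing the data. For arrays of copies and for WT +DSB replicate 3, whose reads come in uneven steps, values are less certain.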

Additional observations from a re-analysis of the deposited data

Results flagged for a closer look

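The change with 4-OHT in the share of CpG-free sites with a peak differed between the genotypes. It was −1.02 percentage points in WT and 0.30 in R132H, a difference of 1.32 (two-sided exact permutation p = 0.005, the smallest possible, adjusted 0.0325 over 13 tests), with WT +DSB below WT −DSB in 3 of 3 samples and R132H +DSB above R132H −DSB in 3 of 3 samples. All shares lay between 98.0% and 99.3%. The groups with lower shares, WT +DSB and R132H −DSB, are those with the deeper lists and longer fragments, and the other distal sites moved alike. The lists held 316048 to 351593 peaks in WT −DSB, 209058 to 346847 in WT +DSB, 181565 to 280485 in R132H −DSB and 277568 to 348469 in R132H +DSB. With the groups of the run names the difference was 0.45 (exact permutation p = 0.385). The part of these in the result was not tested.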

How the results depend on the processing

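Leaving aside single samples left out, of 164 alternatives to the tests between samples 134 kept the direction and the side of the threshold, and of 42 alternatives to the counts of CpG-free sites called 35 stayed within 1.5 times. The smallest possible p was 0.1 within a genotype and 0.111 for TET1 CD against TET1 dCD. With these samples such tests could not fall under 0.05, so for them the 134 speak of direction only. With single samples left out, 1 of 102 tests turned in direction and 8 of 26 counts moved by over 1.5 times. The causes were not tested unless stated. With every list as its own sample, lists that agreed within sampling noise count as separate samples, which can make p-values too small. The rank difference R132H minus WT was then 1.08 and the rank change with 4-OHT in R132H −1.18. The change in the share with a peak in WT was −1.04 and the AsiSI change in WT 3.29. All had an exact permutation p under 0.05 with lists counted this way, and TET1 CD against dCD with 4-OHT gave 680 sites. With groups from the run names the share with a peak differed by 0.66 between genotypes (exact permutation p = 0.005), changed by −0.13 with 4-OHT in R132H, by 0.45 between these changes and by 0.22 for TET1, the AsiSI change in R132H was 1.00, and the sites called were 0 for 4-OHT in WT, 0 in R132H and 107 for TET1 with 4-OHT. With the 40000 strongest peaks the rank values were −0.68 (genotype), 4.83 (4-OHT in WT), −8.77 (difference of changes) and −1.81 (level), and those for the share with a peak were −1.42 (genotype), 8.31 (4-OHT in WT), −8.89 (in R132H), −17.2 (difference) and 5.93 (TET1). Among peaks whose −log10 q reached 10 the share with a peak gave −0.027, 0.43, −1.64, −2.07 and 2.09 in the same order. Within 5 GC bins the ranks gave −0.53 (genotype), 4.32 (4-OHT in WT) and −7.95 (difference). The AsiSI change in R132H was 1.17 with no CpG within 150 bp and 0.13 over 5 kb from a TSS, and the difference in the share with a peak was 0.94 with summits within 50 bp. Median centring gave 790 sites for TET1 with 4-OHT, and missing peaks set to the lowest fold gave 2 for TET1 without. Leaving out single samples gave 942 to 1072 sites for R132H against WT with and 245 to 707 without 4-OHT, 489 to 979 for 4-OHT in WT, 554 to 821 in R132H, and 72 to 80 with and 0 to 38 without 4-OHT for TET1. The difference of the rank changes then ranged from −0.22, without WT +DSB replicate 3+4, to 1.44. Replicate numbers were not shown to pair the lists. Over the CpG-free sites same-numbered lists of 2 groups had correlations of −0.10 to 0.22 in their deviations from the group means, and a list matched its own number best in 15 of 42 comparisons. For the mean rank these correlations, over 3 or 4 shared numbers, ranged from −0.14 between R132H −DSB and R132H +DSB to 1.00. With the replicate block the rank difference between genotypes was 1.25 (exact permutation p = 0.0156), and TET1 with 4-OHT gave 719 sites (30.5%, against 34.8% of all sites). The block also counts every list as its own sample, so the same limit holds for this p.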
